A study of Rattus norvegicus with 6 samples.

Results

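The genes described here are those of adhesion and neuregulin signalling in repair Schwann cells, the state that Schwann cells of a peripheral nerve enter after injury. They were fixed by name: the ligand gene Nrg1, the receptor genes Erbb2 and Erbb3, the adhesion genes L1cam and Ncam1, the transcription factor genes Foxd3 and Tfap2a, and the glial marker genes S100b and Gfap. Of these 9 genes, 8 were measured among the 16551 genes of the deposited mRNA table, each on a single row, and Foxd3 is not analysed here. RNA was sequenced from rat dorsal root ganglion cells in primary culture. The high-glucose group (titled DM) had 3 samples, cultured in 45 mmol/L glucose, and the control group also had 3. The culture time was 48 h in both groups. That the DM samples are the high-glucose ones is not spelled out in the labels, and the glucose level of the control medium, any control for osmolarity and the sex, age and strain of the rats were not given in the labels used here. The culture protocol includes a paraformaldehyde step and leaves unsaid whether the sequenced cells went through it. The samples of a group are called duplicates in the labels, which do not say that they came from separate cultures or animals, so p-values cover only sample-to-sample spread, possibly a technical one.

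Neuregulin 1 is an EGF-like growth factor that axons present to Schwann cells. It binds ErbB3, whose own kinase is weak, and ErbB3 signals as a pair with ErbB2, which has an active kinase and no known ligand of its own. This signal keeps Schwann cell precursors alive and sets the thickness of myelin. L1 and NCAM are adhesion molecules of the immunoglobulin superfamily that non-myelinating and repair Schwann cells carry, and that neurons and other cells carry too. Foxd3 and Tfap2a act in the neural crest, from which Schwann cells derive, and S100b and Gfap are used as markers of Schwann cells and other glia.

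The mRNA table held 28780612 to 33108451 reads per high-glucose sample and 28949744 to 32181594 reads per control sample, worked back from the deposited values. A level is given in log2 CPM, the log2 of CPM (reads scaled to library size), and is not corrected for gene length. A log2 fold change subtracts control from high glucose and stands beside its standard error (SE, n = 3 samples per group). A gene passed at an adjusted p under 0.05 (limma, Benjamini-Hochberg over all 16551 genes). Against the label of nerve cells, transcripts of neurons were scarce: the neuron list was read at a summed 83.1 to 85.5 CPM in high glucose and 118 to 123 CPM in control.

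Of the 8 measured genes, 7 passed as lower in high glucose, none passed as higher, and Erbb2 did not pass. Over the whole table, 50.5% of genes passed, 25.5% as lower and 24.9% as higher. In each of the 8 genes all high-glucose samples lay below all control samples, as in 28.9% of all genes (57.6% did not overlap in either direction). Of the 8 genes, 5 passed at a fall of at least 1.5-fold, beside 7.3% of all genes, and 3 at a fall of at least 2-fold, beside 3.5% of all genes. The median log2 fold change of the 8 was -0.80, against 0.01 over all genes, where the median of the absolute values was 0.28. The genes were chosen with earlier results of these samples known, so these counts describe them and are no independent evidence of a direction. The largest fall was that of L1cam, and those of Nrg1 and Tfap2a followed. In bulk RNA, fewer cells of a type and less RNA per cell cannot be told apart.

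**Figure D1:**
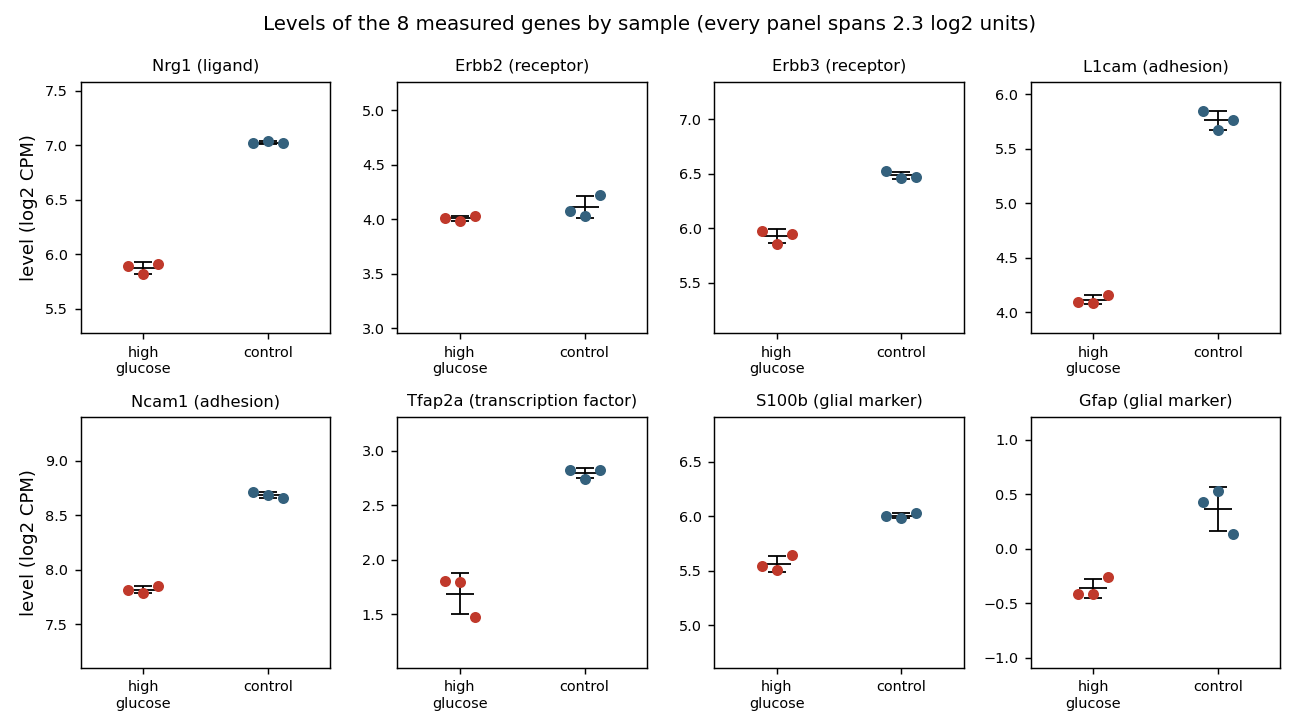
Level in log2 CPM of each measured gene in every sample, with high glucose at the left and control at the right of each panel; points are samples, and the bar and whiskers give the mean and SD of 3 samples. The group means differ by more than 1 log2 unit for L1cam, Nrg1 and Tfap2a and the samples nearly touch for Erbb2.

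Nrg1 (ENSRNOG00000010392), the ligand, had levels of 5.90, 5.82 and 5.91 log2 CPM in the high-glucose samples, against 7.02, 7.04 and 7.02 in the control samples. All high-glucose samples lay more than 1 log2 unit below all control samples, and the samples of each group lay close together. The fall was 2.22-fold (log2 fold change -1.15 ± 0.03, adjusted p = 4.01e-12 in limma), and 4.15% of all genes had a more negative value. The counts behind it were 5609 reads over the high-glucose samples and 11506 over the control samples. The table has a single row for this gene, so the many isoforms of neuregulin 1, which differ in how they are anchored and released, were not separated.

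Of the receptors, Erbb3 (ENSRNOG00000004964) had levels of 5.98, 5.85 and 5.95 log2 CPM in high glucose, against 6.52, 6.46 and 6.47 in control. The groups did not overlap, and the fall was 1.48-fold (-0.56 ± 0.04, adjusted p = 2.46e-08), smaller in size than that of its ligand. Erbb2 (ENSRNOG00000006450) had levels of 4.01, 3.99 and 4.03 log2 CPM in high glucose, against 4.08, 4.03 and 4.23 in control. The highest high-glucose sample and the lowest control sample nearly met, and control 3 stood above the rest. Its log2 fold change of -0.10 ± 0.06 did not pass (adjusted p = 0.192), and the 95% interval ran from -0.24 to 0.03, so that a fall as large as that of Erbb3 lay outside it. Scaled to plain library totals, the value for Erbb2 was 0.01, on 1538 reads in high glucose and 1528 in control.

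L1cam (ENSRNOG00000061230), whose product binds itself and other adhesion molecules between axons and Schwann cells, had levels of 4.09, 4.08 and 4.16 log2 CPM in high glucose, against 5.84, 5.67 and 5.77 in control. The gap between the groups was several times the spread within either of them. L1cam was 3.13-fold lower (-1.65 ± 0.05, adjusted p = 1.11e-11), and 1.78% of all genes had a more negative log2 fold change. Ncam1 (ENSRNOG00000031890), the neural cell adhesion molecule, had levels of 7.81, 7.78 and 7.85 log2 CPM in high glucose, against 8.71, 8.68 and 8.66 in control. It was the member with the most reads, 21510 over the high-glucose samples and 36287 over the control samples, and the groups stood far apart. The fall was 1.83-fold (-0.87 ± 0.02, adjusted p = 3.41e-12).

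Tfap2a (ENSRNOG00000015522), which encodes the AP-2 alpha factor of neural crest cells and Schwann cell precursors, had levels of 1.80, 1.79 and 1.47 log2 CPM in high glucose, against 2.82, 2.74 and 2.82 in control. High glucose 3 was the lowest, at 94 reads, and the groups did not overlap. Tfap2a was 2.16-fold lower (-1.11 ± 0.12, adjusted p = 4.2e-06).

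Among the glial markers, S100b (ENSRNOG00000001295), a calcium-binding protein, had levels of 5.55, 5.50 and 5.65 log2 CPM in high glucose, against 6.004, 5.983 and 6.030 in control. The groups did not overlap, and the fall of 1.36-fold was the smallest of the 7 that passed (-0.44 ± 0.04, adjusted p = 6.99e-07). Gfap (ENSRNOG00000002919), the glial intermediate filament of astrocytes and of non-myelinating and repair Schwann cells, was scarce. It had 22, 23 and 28 reads in the high-glucose samples, against 37, 44 and 32 in the control samples. Its levels were -0.42, -0.41 and -0.26 log2 CPM in high glucose, against 0.43, 0.53 and 0.14 in control, with the widest spread of all 8 genes in control. Gfap was 1.66-fold lower (-0.73 ± 0.23, adjusted p = 0.0189), and its adjusted p was 0.0533 without control 1 and 0.0695 without control 2, within a range of 0.00709 to 0.0695 over the alternatives.

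**Figure D2:**
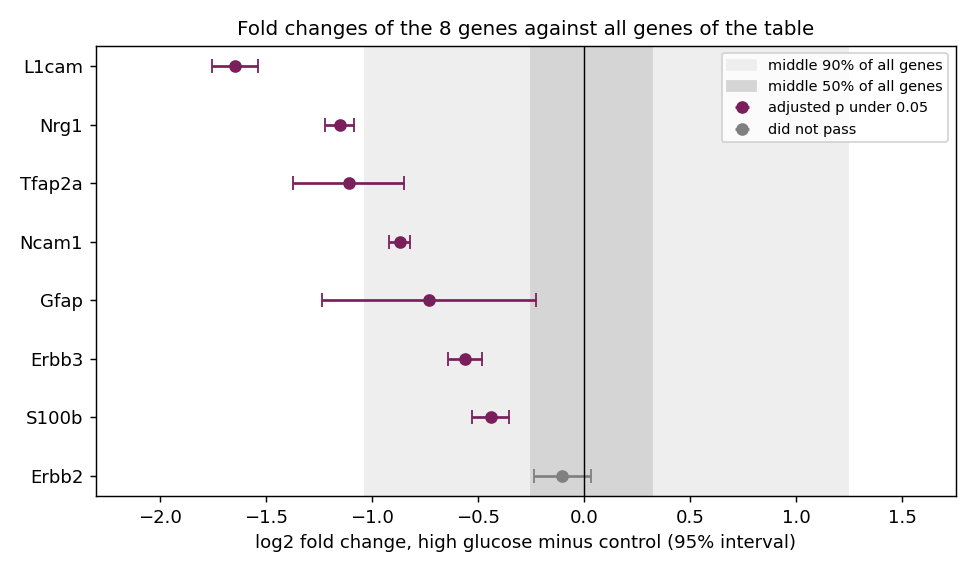
Log2 fold change, high glucose minus control, of each measured gene with its 95% interval from limma, ordered by size, over bands that hold the middle 50% and 90% of all 16551 genes. L1cam at -1.65, Nrg1 at -1.15 and Tfap2a at -1.11 lie outside the middle 90%, and the interval of Erbb2 includes 0.

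Sequence before the transcription start was at hand for 4 of the 9 genes in RefSeq, build GRCr8: Foxd3, Erbb2, Gfap and S100b. The 250 bases before the start are shown for the receptor gene that did not pass and for both glial marker genes that fell, with each CCAAT box, on either strand, in capitals. They lie at chr10:83907351-83907600 on the plus strand for Erbb2, at chr20:12381082-12381331 on the minus strand for S100b, and at chr10:88361662-88361911 on the minus strand for Gfap.
Erbb2: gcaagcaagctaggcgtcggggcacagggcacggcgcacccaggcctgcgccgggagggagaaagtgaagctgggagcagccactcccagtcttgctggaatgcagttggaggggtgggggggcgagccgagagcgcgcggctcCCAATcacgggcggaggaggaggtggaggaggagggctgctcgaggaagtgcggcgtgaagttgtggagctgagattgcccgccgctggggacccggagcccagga
S100b: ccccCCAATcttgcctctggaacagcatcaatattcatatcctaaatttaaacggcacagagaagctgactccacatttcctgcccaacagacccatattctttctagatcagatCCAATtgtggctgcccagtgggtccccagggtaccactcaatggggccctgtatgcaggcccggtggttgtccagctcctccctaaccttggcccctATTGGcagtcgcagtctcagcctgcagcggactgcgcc
Gfap: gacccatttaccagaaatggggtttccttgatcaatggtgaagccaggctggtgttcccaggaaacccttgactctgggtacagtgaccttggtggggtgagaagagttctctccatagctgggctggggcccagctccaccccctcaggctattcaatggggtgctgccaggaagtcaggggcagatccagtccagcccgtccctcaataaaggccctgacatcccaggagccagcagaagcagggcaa
The Erbb2 stretch was 69.2% G and C with 19 CpG pairs, that of S100b 54.8% with 5 and that of Gfap 57.6% with 1, where the median of all 33469 promoters of this length was 51.2% G and C. Erbb2 held 1 CCAAT box, which begins 106 bases before the start, and S100b held 3, at 246, 135 and 38 bases before it. A CCAAT box stood in 34.0% of all promoters. The motif of AP-2 factors (GCCNNNGGC, in 12.6% of all promoters), that of AP-1 (TGANTCA, 6.34%), that of SOX factors (ACAANG, 36.9%) and the core bound by NFAT factors (TGGAAA, 19.7%) were searched on both strands. None of these letters stood in the windows of the 4 genes. The CCAAT box was added to the search after the other motifs had been counted.

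Ratios within a sample do not depend on the scaling between libraries. Within one family, 10 ratios were tested with an exact two-sided permutation test over the 6 samples, whose smallest possible p is 0.1, so no ratio could pass 0.05. The log2 ratio of Erbb3 to Erbb2 was 1.96, 1.86 and 1.92 in the high-glucose samples, against 2.44, 2.43 and 2.25 in the control samples, a difference of -0.46 with no overlap (exact permutation p = 0.1, 0.111 adjusted over the 10 ratios). The log2 ratio of L1cam to Ncam1 was -3.72, -3.70 and -3.69 in high glucose, against -2.87, -3.01 and -2.89 in control, a difference of -0.78 with no overlap (exact permutation p = 0.1, 0.111 adjusted). Every high-glucose sample thus held less Erbb3 per Erbb2 and less L1cam per Ncam1 than any control sample.

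Sox10, the factor that marks the whole Schwann lineage, was itself lower in high glucose (-0.70 ± 0.05, adjusted p = 5.76e-08), so each gene was also set against Sox10 in the same sample. L1cam over Sox10 was lower by -0.95 on the log2 scale, Nrg1 by -0.45, Tfap2a by -0.41 and Ncam1 by -0.17, each with no overlap between the groups. Erbb2 over Sox10 was higher by 0.59, S100b by 0.26 and Erbb3 by 0.14, again with no overlap. Gfap over Sox10 overlapped between the groups, with a difference of -0.03. The exact permutation p was 0.1 for the 7 ratios with no overlap (0.111 adjusted over the 10 ratios) and 0.7 for Gfap. Tfap2a over Sox10 stood at -0.24 without high glucose 3. Set against Cdh19, a cadherin gene of the Schwann lineage that fell further than Sox10 (-0.92 ± 0.05), the difference was 0.05 for Ncam1 and 0.19 for Gfap, so the direction of these 2 genes depended on which Schwann gene they were set against. L1cam (-0.73), Nrg1 (-0.23), Tfap2a (-0.19), Erbb2 (0.82), S100b (0.48) and Erbb3 (0.36) kept their direction. Cdh19 was chosen for this after the data were seen.

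**Figure D3:**
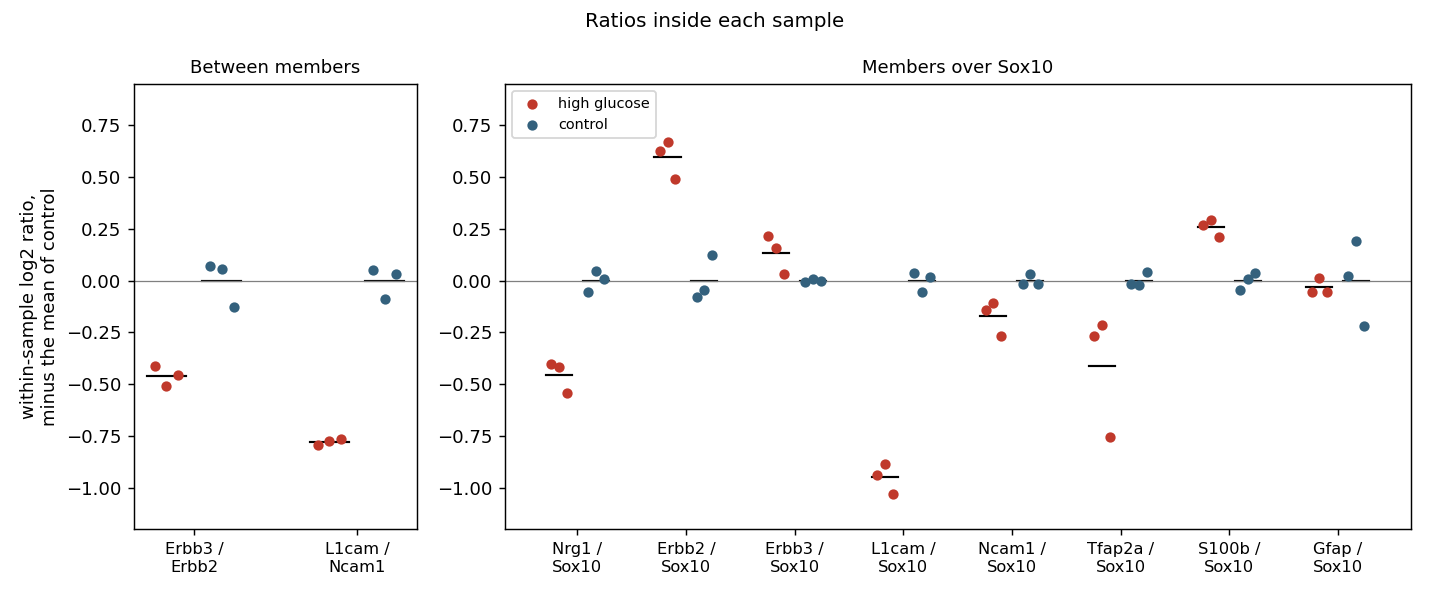
Log2 ratio inside each sample, after subtracting the mean of the control samples, with high glucose left of control at each position; points are samples and bars are means of 3. The difference in log2 ratio to Sox10, high glucose minus control, is -0.95 for L1cam and -0.45 for Nrg1, whereas it is 0.59 for Erbb2. For Gfap the groups overlap.

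The samples of a group differed little. The SD within a group ran from 0.01 log2 for Nrg1 in control to 0.20 for Gfap in control. High glucose 2 was the lowest of its group for 6 of the 8 genes and high glucose 3 the highest for 6, by amounts that stayed far below the differences between the groups for L1cam, Nrg1 and Ncam1. The genes with the most similar pattern were sought among 12239 others with a mean level of at least 0 log2 CPM, by the root mean square distance of the 6 mean-centred values. They were Sorcs2 for Nrg1 (0.03 log2), Nectin1 and LOC100361457 for Erbb3 (0.01 and 0.02), Serf2 and Sdhd for Erbb2 (0.02 and 0.02), and Pcgf5 and Ddah1 for L1cam (0.03 and 0.06). For Ncam1 they were Actn4 and Eln (0.01 and 0.02), for Tfap2a Cpeb1 and Fam221a (0.04 and 0.07), for S100b Slc38a7 and Prdm16 (0.02 and 0.02), and for Gfap Arap3 and Cebpa (0.06 and 0.06). With 6 samples in 2 groups, likeness reflects mainly the size of the difference between the groups.

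The other genes of the pathways were taken from lists, described by counts and medians. Among 12 other EGF-family ligands and ErbB receptors, 5 passed as lower, 1 as higher and 6 neither way, with a median log2 fold change of -0.59 (-0.44 with Nrg3, at 0 reads in high glucose and 4 in control, taken at a floor of 3 reads over the group). The receptor Egfr, which binds EGF and its relatives, was the one that rose (0.60 ± 0.03, adjusted p = 2.91e-10), so Egfr, Erbb2 and Erbb3 had values of 0.60, -0.10 and -0.56. Erbb4, the other neuregulin receptor, fell (-1.27 ± 0.20) on 137 reads in high glucose and 311 in control. The ligands Tgfa (-1.62 ± 0.12), Hbegf (-0.84 ± 0.04) and Btc (-0.34 ± 0.10) fell, the last not with plain library totals (adjusted p = 0.0713). Areg fell too (-1.24 ± 0.38, adjusted p = 0.0156), but not without high glucose 3 (adjusted p = 0.0569) or control 2 (adjusted p = 0.0603). Of the other neuregulins, Nrg2, with 26 reads in high glucose and 13 in control, and Nrg4, with 28 and 24, did not pass.

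Genes that process neuregulin or relay the ErbB signal moved both ways. Of 21 measured, 7 rose, 8 fell and the other 6 did not pass (median 0.01), and with plain library totals 11 rose. Bace1, the protease known to cut neuregulin 1 in axons, rose (0.38 ± 0.03, adjusted p = 9.29e-07), while its relative Bace2 fell (-1.21 ± 0.04, adjusted p = 9.27e-11). The kinase subunit Pik3r2 (0.52 ± 0.03), the phosphatase Ptpn11 (0.24 ± 0.02) and the phospholipase Plcg1 (0.23 ± 0.02) rose, and the chaperone Hsp90ab1 (-0.37 ± 0.02) and the kinase Src (-0.27 ± 0.03) fell. Akt1, with a value of 0.01 ± 0.02, did not pass. Of 11 measured genes of feedback and receptor turnover, 5 rose and 4 fell, with a median of 0.00, and with plain library totals 2 fell. Errfi1, an inhibitor of ErbB kinases, rose most (0.65 ± 0.04), followed by Lrig1 (0.38 ± 0.05), Socs4 (0.31 ± 0.05) and Lrig2 (0.24 ± 0.06). The ubiquitin ligase gene Cblb fell (-0.31 ± 0.03), as did the phosphatase gene Ptpn9 (-0.20 ± 0.03). Rnf41, which marks ErbB3 for degradation, had a value of 0.00 ± 0.04 and did not pass.

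Relatives and partners of L1 and NCAM were mostly lower. Of 23 measured, 13 were lower, 4 higher and 6 neither, at a median of -0.64. The cadherin gene Cdh2, which joins Schwann cells to axons and to each other, fell (-1.41 ± 0.03, adjusted p = 1.16e-13), as did Ncan, a proteoglycan that binds L1 and NCAM (-2.63 ± 0.07), Mcam (-1.11 ± 0.03) and Cadm4, by which Schwann cells attach to axons (-0.79 ± 0.03). Nrp1, a semaphorin coreceptor that associates with L1 (0.74 ± 0.02), Fgfr1, a receptor that NCAM can engage (0.73 ± 0.03), Cntnap1 (0.93 ± 0.14) and Ank2, an ankyrin (0.13 ± 0.03), rose. St8sia2, an enzyme that attaches polysialic acid to NCAM, stood in the lncRNA table, which the authors scaled on its own. It had 36, 27 and 40 reads in the high-glucose samples, against 110, 104 and 146 in the control samples. The groups stood apart, at a log2 fold change of -2.09 ± 0.19 (adjusted p = 1.62e-06 in limma over 1012 rows), in a table where 7.31% of rows passed as lower. St8sia4, the other enzyme of this kind, stood in the mRNA table with 18 reads over the high-glucose samples and 25 over the control samples, and did not pass.

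Transcription factors of the neural crest and Schwann lineage split evenly, with 9 of 24 measured lower, 9 higher and 6 that did not pass, and a median of -0.05. Sox10, Sox9 (-0.87 ± 0.05), Ets1 (-0.38 ± 0.03) and Sox6 (-1.001 ± 0.091) fell, and Snai2 (0.80 ± 0.04), Foxd1 (1.51 ± 0.09), Id2 (0.70 ± 0.04) and Nfatc4 (0.32 ± 0.03) rose. Tfap2b, the nearest relative of Tfap2a in this list, fell (-0.90 ± 0.27, adjusted p = 0.0149) on 63 reads in high glucose and 108 in control. That adjusted p lay at 0.0577 without high glucose 1, 0.0542 without control 1 and 0.0544 without control 3. Foxd1, of the same family as Foxd3, is named under the rule for lists and does not stand for Foxd3.

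Of 16 other genes of the repair Schwann cell programme, 11 passed as lower, 2 as higher and 3 neither way (median -0.55). The secreted factor Lif (-1.94 ± 0.09), the neurotrophin receptor Ngfr (-0.64 ± 0.04) and the injury factor Atf3 (-1.17 ± 0.07) fell. The chemokine Ccl2 rose (2.01 ± 0.06, adjusted p = 1.92e-11). Jun, the factor on which the repair state depends, had 0.07 ± 0.02 and passed as higher (adjusted p = 0.0283), but not without high glucose 2 (0.0831), high glucose 3 (0.0537), control 1 (0.0753) or control 2 (0.0925), with a single variance prior (0.105) or with a replicate block (0.0591). Among 14 S100 proteins and intermediate filament genes related to S100b and Gfap, 5 rose and 5 fell, with a median of -0.13. S100a4 (0.80 ± 0.02), S100a6 (0.36 ± 0.02), S100a1 (1.21 ± 0.16) and S100a5 (2.49 ± 0.36) rose, unlike S100b, while S100a11 (-0.46 ± 0.03) and S100a16 (-0.75 ± 0.10) fell. Of the filament genes, Nes, found in immature glia, fell (-1.30 ± 0.04), and so did Vim (-0.34 ± 0.01). Quantile normalization gave Vim a log2 fold change of exactly 0. The method gives that value to any gene of the same rank in all samples, so it cannot test the fall of Vim.

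**Figure D4:**
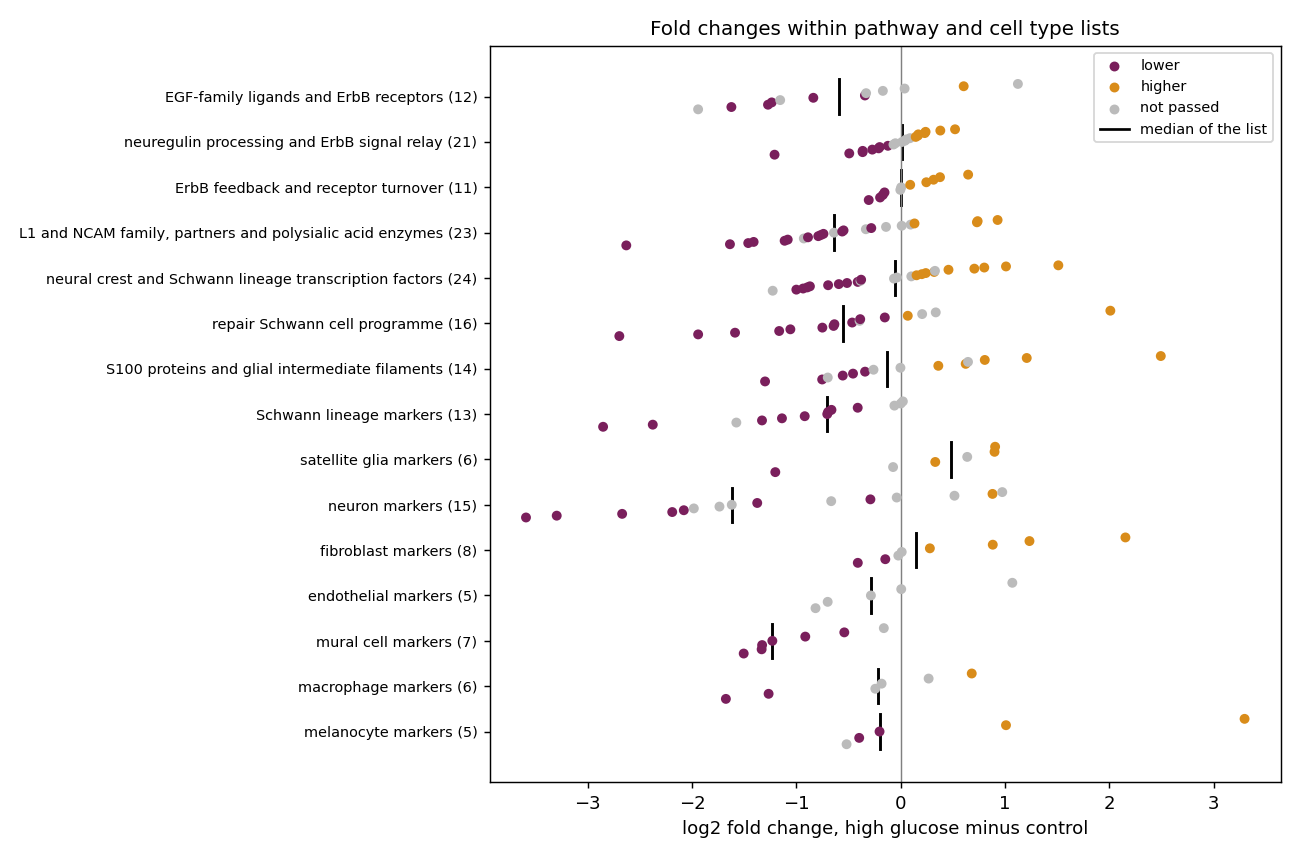
Log2 fold change, high glucose minus control, of every measured gene of 7 pathway lists and 8 cell type lists (number measured in brackets), coloured by whether it passed as lower or higher, with the median of each list as a black bar. The list of L1 and NCAM relatives has its median at -0.64, that of the repair programme at -0.55 and that of ErbB signal relay at 0.01.

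Markers of the cell types that could carry these genes moved in the same comparison, and their part in the results was not tested. Of 13 Schwann lineage markers 9 were lower and none higher, with a median of -0.71. The count of lower ones was 8 without genes of a mean level under 0. The summed level of the 13 was 204 to 212 CPM in high glucose, against 325 to 340 CPM in control. Cnp (-0.06 ± 0.04) and Prx (0.00 ± 0.08) did not pass. Of 15 neuron markers 7 were lower and 1 higher (4 lower without genes of a mean level under 0), with a median of -1.62. That median is the value of Elavl3, which was scarce (8 reads over high glucose, 19 over control) and did not pass. Of the 3 markers with the highest level, Uchl1 (-0.29 ± 0.04) and Tubb3 (-1.38 ± 0.06) fell and Syt1 (0.88 ± 0.07) rose. The summed level was 83.1 to 85.5 CPM in high glucose against 118 to 123 CPM in control. Snap25 had 2 reads over the high-glucose samples and 27 over the control samples, and passed as lower. Isl1 had 2 and 7 and did not pass. Of 7 mural cell markers 6 were lower, at a summed 7395 to 7439 CPM in high glucose against 13903 to 14014 CPM in control. Of 6 satellite glia markers 3 were higher, Glul (0.90 ± 0.04), Slc1a3 (0.90 ± 0.07) and Gja1 (0.33 ± 0.02), and 1 was lower (none without genes of a mean level under 0), at a summed 1323 to 1360 CPM in high glucose against 1031 to 1039 CPM in control. Of 8 fibroblast markers 4 were higher and 2 lower, with a median of 0.14. Lum (2.15 ± 0.03), Dcn (1.23 ± 0.04), Pdgfra (0.88 ± 0.02) and Col3a1 (0.28 ± 0.01) rose, and Col1a1 (-0.41 ± 0.03), the gene with the most reads of the list, fell. The summed level of the 8, most of it from the collagen genes Col1a1 and Col3a1, was 51784 to 54400 CPM in high glucose against 55196 to 57422 CPM in control. With plain library totals 1 fibroblast marker was lower. After quantile normalization 1 was lower too, but that method set Col1a1 and Col3a1 to a log2 fold change of exactly 0, as it did Vim, and cannot test them. Of 5 melanocyte markers 2 were higher and 2 lower, with Tyrp1 at 487 reads in high glucose and 46 in control. Of the 2 lower, Pmel (-0.40 ± 0.14) did not pass with plain library totals (adjusted p = 0.106), with a single variance prior (0.0681), or without high glucose 1 (0.126), control 1 (0.0696) or control 2 (0.128), and Kit (-0.20 ± 0.06) did not pass with plain library totals (adjusted p = 0.228). Of 6 macrophage markers 1 was higher and 2 were lower, at a summed 11.5 to 12.4 CPM in high glucose and 10.6 to 11.7 CPM in control. None of 5 endothelial markers passed in limma, with 1 (Egfl7, -0.29 ± 0.12) lower at an unadjusted p under 0.05 and 1 passing as lower after quantile normalization.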

How the data were processed

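RNA was measured in 3 high-glucose and 3 control samples, grouped by title. The authors deposited an mRNA and an lncRNA table of log2 values, voom-normalized per the file names. The submitters' processing notes name the build Rnor_6.0, featureCounts 1.6.0, HISAT2 2.1.0 and fastp 0.19.4; roles, settings, annotation and counting strand are not given in the sources used here, so reads of antisense transcripts cannot be told apart. The deposited log2 values are log2((reads + 0.5) per scaled library size): 100% of them gave whole reads within 0.01 read. Scaling factors of the mRNA table, 1.03 to 1.05 in high glucose and 0.959 to 0.964 in control, did not overlap between the groups, so small changes depend on them. Those of the lncRNA table, which holds St8sia2 and Dct, lay the other way round. They were 0.902 to 0.945 in high glucose and 1.06 to 1.09 in control.

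limma 3.58.1 (R 4.3.3) was fitted to all mRNA genes as deposited, by group, with a mean-variance trend, two-sided, Benjamini-Hochberg adjusted, threshold 0.05; the lncRNA table was fitted apart. The fit was tested on simulated data in which 200 of 16551 genes were changed by 1 log2 unit. It called 99% of these in the right direction and 0.0428% of the unchanged genes. Far fewer genes were changed there than the 8354 that passed in the real data, so the simulation does not test the fit at that share. Exact permutation tests used scipy 1.17.1 and figures matplotlib 3.10.9. Genes were matched by symbol, and a symbol with several rows took the row with the highest mean. Members, lists and tests were chosen with earlier results of these data known. All members are named. Of each pathway list, up to 4 genes with the smallest p in each direction are named, and of each cell type list the 3 with the highest level could be. Areg, Tfap2b, St8sia2, Prx, Snap25, Isl1, Tyrp1, Dct, Lum, Dcn, Pdgfra and Egfl7 were chosen after their values were seen. So were the list genes that did not pass, other than members and Cnp. Some genes that the rule names, and the planned ratios to a panel of Schwann genes, are not reported here; Sox10 alone takes the panel's place. Promoters are from RefSeq (GRCr8).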

Additional observations from a re-analysis of the deposited data

Results flagged for a closer look

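Dct, an enzyme of melanin synthesis and one of the melanocyte markers, was read in the lncRNA table, with reads in high glucose and none in control. It had 4, 5 and 2 reads in the high-glucose samples, 11 in all, against 0 in each control sample. Set against a floor of 3 reads over the control group, it was 2.98-fold higher in high glucose, a value that rests on these 11 reads.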

How the results depend on the processing

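The 7 falls kept their direction under all 13 alternatives, and 6 of them, all but that of Gfap, also stayed past the threshold. Erbb2 turned to 0.011 with plain library totals (adjusted p = 0.897) and passed under none of the 13. Gfap did not pass without control 1 or control 2, and with one sample left out its log2 fold change ran from -0.84 to -0.65. The cause was not tested. Plain library totals moved the median of all genes to 0.13, and 67.6% of the called genes were then higher, against 49.4% with the deposited scaling. Between 7369 and 8779 genes passed over all alternatives, against 8354. With Cdh19 in place of Sox10, an alternative added after seeing the data, the differences in log2 ratio were -0.229 for Nrg1, 0.819 for Erbb2, 0.36 for Erbb3, -0.725 for L1cam, 0.052 for Ncam1, -0.187 for Tfap2a, 0.482 for S100b and 0.193 for Gfap, and quantile normalization put Gfap over Sox10 at -0.183; here too the cause was not tested. Same-numbered samples did not deviate together (correlations of -0.09 to 0.03). With 3 samples per group this cannot show whether the samples were paired, and the labels state no pairing. A replicate block left 8052 genes called and changed no call of the 8 genes. Tfap2a and Gfap, with the fewest reads, had the widest intervals.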
